A study of Mus musculus with 6 samples.

Results

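Clathrin-mediated endocytosis and exocyst-dependent secretion were examined through 10 genes: the clathrin chains Clta, Cltb and Cltc, the coat adaptors Ap2a1, Picalm and Eps15l1, the scaffold Itsn1, the scission and uncoating enzymes Dnm2 and Synj1, and the exocyst subunit Exoc7. The genes were picked by name, with splicing differences in these same libraries already known, out of 55331 genes listed. All 10 were found in the gene table, and they held 90 of the 61715 splicing events listed. Every splicing difference below is therefore a description of genes chosen partly for it, and no test of it was made.

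Clathrin is a lattice of heavy chains carrying light chains, which assembles on membranes with the AP-2 adaptor complex and bends them into pits. Dynamin cuts the pit from the membrane, and synaptojanin removes the phosphoinositides that hold the coat. The exocyst acts in the opposite traffic, tethering secretory vesicles to the plasma membrane. In intestinal epithelium both routes carry receptors and transporters to and from the polarised cell surface. Light chain transcripts have short coding exons best known from brain, and PTBP1 is an RNA-binding protein known for keeping many such exons out of transcripts.

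The data are 6 RNA-seq libraries of polyadenylated RNA from small intestinal crypt cells of C57BL/6 mice aged 60 days, 3 WT and 3 PTBP1_KO. WT mice had the genotype Ptbp1f/f, with floxed Ptbp1 and no Cre, and PTBP1_KO mice had Ptbp1f/f;Vil-creER+/-, in which villin sequence drives a tamoxifen-inducible Cre in intestinal epithelium only. Both groups received 2 daily tamoxifen injections of 100 mg/kg, and crypts were collected 20 h after injection 2, so the controls carried the floxed alleles and the drug but not the Cre. The labels do not say that each library came from its own mouse. The comparison addresses what PTBP1 does in regeneration of the intestinal epithelium.

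The gene table gives 1 FPKM value per group (fragments per kilobase of transcript per unit of sequenced fragments, so that genes can be set side by side per length), with no spread between libraries and unknown depth. The splicing tables give reads for 3 libraries in a first set and 3 in a second set, whose headers leave the genotype of each set unstated. No genotype was assigned to a set here, and "first" and "second" only follow the headers. Libraries held between 32186405 and 39720787 reads summed over covered skipped exon events, and no library stood apart in depth. Ptbp1 was listed at 230.0 FPKM in WT and 122.8 FPKM in PTBP1_KO.

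Epithelial identity was checked against markers. The 7 epithelial markers lay between 227 and 2011 FPKM in WT and between 218 and 2191 FPKM in PTBP1_KO. Endothelial (3), enteric glia (4) and enteric neuron (8) markers were below 1 FPKM in both groups, except Ret, a receptor marking enteric neurons, at 1.12 FPKM in PTBP1_KO. The 8 neuron markers summed to 1.63 FPKM in WT and 2.52 FPKM in PTBP1_KO. Stroma and muscle markers were also below 1 FPKM in both groups for 7 of 8 genes, and the other, Vim, was at 4.90 FPKM in WT and 6.28 FPKM in PTBP1_KO. The 6 crypt markers summed to 2228 and 3171 FPKM in the same order, and only the Paneth cell gene Lyz1 was higher in PTBP1_KO, at 1471 and 2470 FPKM. Olfm4 (618 and 578 FPKM), Mki67 (80.9 and 72.8), Axin2 (43.9 and 36.4), Ascl2 (7.64 and 7.21) and Lgr5 (6.785 and 6.775) were lower. No crypt marker passed q < 0.05 in the authors' deposited table. The 4 tuft cell markers summed to 34.2 and 23.7 FPKM. The 4 enteroendocrine markers summed to 225 FPKM in WT and 279 FPKM in PTBP1_KO, and the 8 immune markers to 39.6 FPKM and 57.4 FPKM. Gcg (enteroendocrine) and Cd8a (immune) each passed q < 0.05 in the authors' deposited table. The part of these cells in the splicing results was not tested.

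Alternative segments of 5 genes are printed here from GENCODE M21 transcripts (GRCm38), because the largest differences and the light chain exons turn on them. Capitals mark the alternative segment, and lower case marks up to 10 bases of the exons before and after it (for Synj1, 30 bases of the rest of its exon).
Clta 54 nt exon: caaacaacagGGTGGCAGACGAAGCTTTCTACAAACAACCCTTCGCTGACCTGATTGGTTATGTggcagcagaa
Clta 36 nt exon: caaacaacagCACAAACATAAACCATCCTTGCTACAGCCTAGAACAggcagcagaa
Cltb 54 nt exon: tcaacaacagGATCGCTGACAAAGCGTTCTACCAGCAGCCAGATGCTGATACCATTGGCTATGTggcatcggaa
Synj1 9 nt segment: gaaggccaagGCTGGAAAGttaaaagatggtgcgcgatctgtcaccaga
Exoc7 93 nt exon: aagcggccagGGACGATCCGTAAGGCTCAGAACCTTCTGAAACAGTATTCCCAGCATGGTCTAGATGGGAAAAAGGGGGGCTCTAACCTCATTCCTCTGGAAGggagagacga
Exoc7 69 nt exon: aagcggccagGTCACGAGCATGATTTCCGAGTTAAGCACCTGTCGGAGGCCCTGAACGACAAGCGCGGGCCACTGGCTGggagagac
Exoc7 39 nt exon: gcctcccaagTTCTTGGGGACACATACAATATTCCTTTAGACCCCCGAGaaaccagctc
Dnm2 12 nt exon: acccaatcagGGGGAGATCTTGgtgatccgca
All 8 segments are coding in GENCODE M21, and each has a length that is a multiple of 3, so none shifts the reading frame by its length. The 54 nt exons of Clta and Cltb have the same base at 37 of 54 positions (68.5%) when laid side by side without gaps. The 2 light chain genes also share the lengths of the preceding exons, 118 nt (62.7% identical) and 112 nt (60.7% identical).

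Across the 10 genes, 86 of the 90 events are called covered here, meaning 20 or more reads on average over the 6 libraries. An event counted as called when it was covered, the authors' FDR was below 0.05 and the authors' inclusion level difference was at least 0.1 in size. By that rule 11 events in Clta, Synj1, Exoc7, Eps15l1 and Dnm2 were called, against 1.56% of all covered events in the series. They were 9 of 69 covered skipped exons (1.68% of all such events called), 1 of 5 alternative 3' splice sites (1.1%) and 1 of 10 mutually exclusive exon pairs (1.02%). The 1 alternative 5' splice site (1.57%) and the 1 retained intron (2.06%) were not called. Of the called events, 5 were higher and 6 lower in the first set.

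The inclusion level is the share of the form with the segment among the forms an event compares, not among all transcripts of the gene. It was computed for each library from the reads that include and skip the segment, each divided by the length of its form. The tables count reads inside an exon as well as at its junctions, so inclusion reads of an event are not tied to the exons that flank it there. In all 11 called events the first and second sets did not overlap, as in 30 of the 86 covered events, while 9.19% of all covered events in the series were separated in this way. Since the genes were chosen on this contrast, nothing is read from these shares. The plot of called events by library shows the 3 values of each set.

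**Figure D1:**
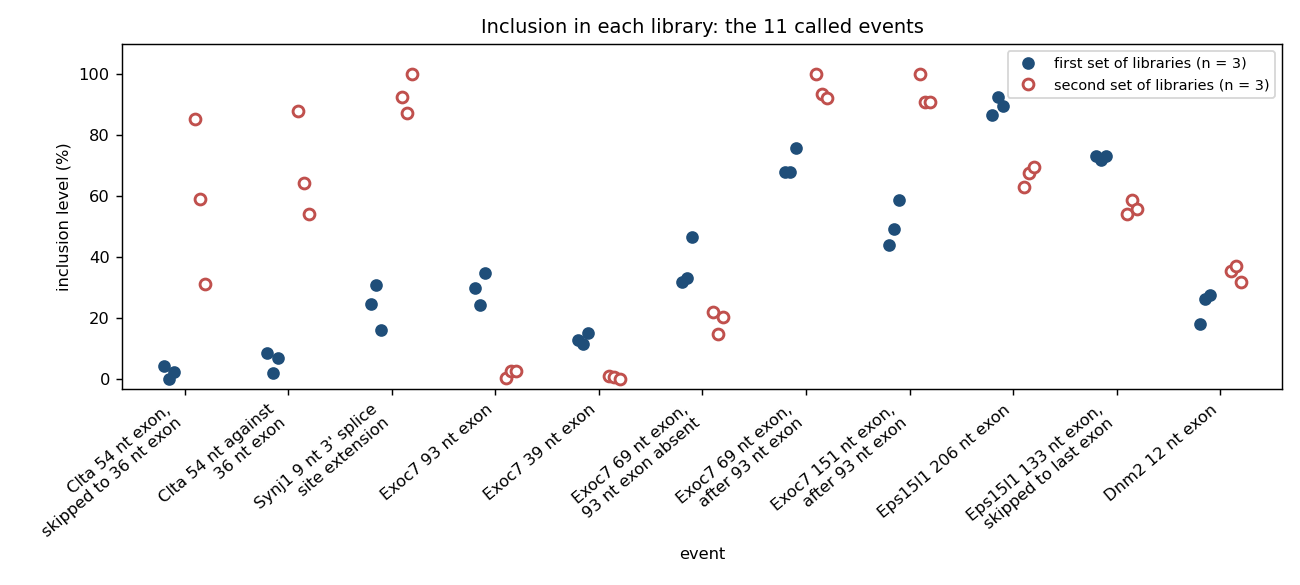
Inclusion level (%) on the vertical axis for each called event of the 10 genes on the horizontal axis, with 1 point per library, filled for the first set (n = 3) and open for the second set (n = 3). The sets are separate in all 11 events, and the Clta events spread most within the second set, from 31.2% to 85.3% in the first of them.

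Clathrin light chain a, encoded by Clta (chromosome 4, 44004452 to 44032846, plus strand), had short coding exons of 54 nt (44030215 to 44030268) and 36 nt (44031400 to 44031435) before its last exon. The 36 nt exon was included at 1.62%, 1.59% and 2.32% in the first set and at 0.0188%, 0.0352% and 0.185% in the second, so it was higher in every library of the first set. These levels rest on 89, 86 and 136 inclusion reads in the first set and 1, 2 and 10 in the second, with at least 4253 reads per library in all. The difference in the authors' deposited table was 0.018, below the size used for a call. In the event that lists it before the last exon, the 54 nt exon was included at 0.152%, 0.0342% and 0.175% in the first set and at 0.137%, 0.0640% and 0.219% in the second, and the sets overlapped. Junction reads from the 54 nt exon to the last exon were 4, 2 and 9 in the first set and 0, 0 and 8 in the second.

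Another listed event sets the same 54 nt exon against transcripts that skip it and carry the 36 nt exon. Its level there was 4.40%, 0% and 2.27% in the first set and 85.3%, 59.3% and 31.2% in the second, and the difference in the authors' deposited table was -0.564. Its skipping reads are junction reads into the 36 nt exon, of which the first set held more. Its inclusion reads were not tied to the exon that follows. In libraries 1 and 2 of the second set they were 8 and 4, as many as in the event before the last exon. Reads that place the 36 nt exon after the 54 nt exon were 0 in both. Junction reads from the 54 nt exon to the last exon were also 0 there. Skipping reads were 79, 78 and 125 in the first set and 1, 2 and 8 in the second, whereas inclusion reads were 5, 0 and 4 against 8, 4 and 5. The second set therefore rested on 6 to 13 reads per library, and its 95% exact intervals ran from 43.8% to 99.6%, from 17.3% to 94.1% and from 10.5% to 61.2%. For a 0, the limit given here and below is that of 3 counts. By it the 0 of 78 reads in library 2 of the first set allows up to 2.83%, whereas its 95% exact interval reaches 3.40%.

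The mutually exclusive comparison of the same 2 exons gave the 54 nt exon 8.42%, 2.07% and 6.85% in the first set and 87.9%, 64.5% and 54.2% in the second. In the authors' deposited table this difference was -0.631. Its skipping reads are those of the 36 nt exon (89, 86 and 136 against 1, 2 and 10). Its inclusion reads are those of the 54 nt exon in the event before the last exon (9, 2 and 11 against 8, 4 and 13). The change of ratio thus lies in reads of the 36 nt exon. Both Clta calls were lost when a mean of 20 reads was asked of each set of libraries.

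Clathrin light chain b, encoded by Cltb (chromosome 13, 54592401 to 54611344, minus strand), has a 54 nt coding exon at 54597026 to 54597079. It was included at 2.13%, 3.02% and 2.89% in the first set and at 0.286%, 0.441% and 0.343% in the second. Every library of the first set was above those of the second, on 49, 65 and 69 inclusion reads against 6, 9 and 9. The 95% exact intervals ran from 1.57% to 3.83% over the first set and from 0.105% to 0.836% over the second. At 0.023 in the authors' deposited table, the exon was not called.

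The clathrin heavy chain, encoded by Cltc (chromosome 11, 86694351 to 86757565, minus strand), forms the legs of the lattice. Its 21 nt coding exon (86701061 to 86701081) was included at 0.587%, 0.524% and 0.444% in the first set and at 0.208%, 0% and 0.0350% in the second. The 0 of 1843 reads allows up to 0.142%. The sets did not overlap, but the authors' deposited table gave an FDR of 1 and a difference of 0.004. The rare skipped exons of the clathrin chains and adaptors are plotted together.

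**Figure D2:**
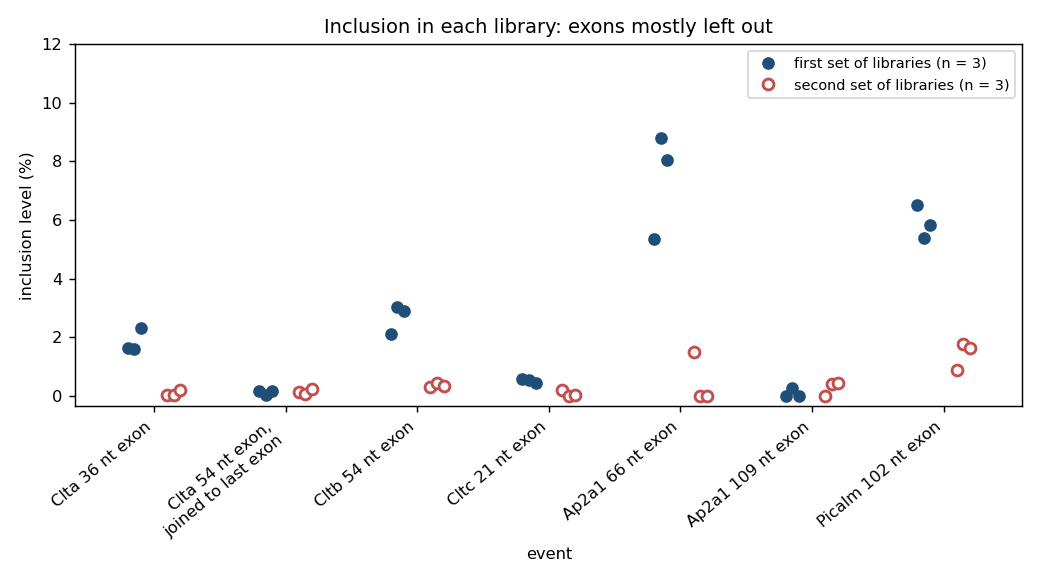
Inclusion level (%) on the vertical axis, from 0 to 12, for the 7 skipped exons of clathrin chains and adaptors included at no more than 10% in every library, with 1 point per library, filled for the first set (n = 3) and open for the second (n = 3). First-set points lie above second-set points for 5 of the exons, and the sets overlap for the Clta 54 nt exon (at most 0.219%) and the Ap2a1 109 nt exon (at most 0.439%). The Clta 54 nt exon is from the event that lists it before the last exon, and its reads were not all seen joined to that exon.

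Among the adaptors, Ap2a1 (chromosome 7, 44900373 to 44929496, minus strand) encodes an alpha subunit of AP-2, which links clathrin to cargo and to the membrane. Its 66 nt coding exon (44903462 to 44903527) was included at 5.36%, 8.79% and 8.06% in the first set and at 1.50%, 0% and 0% in the second. The first set was higher in every library, and the zeros allow up to 1.94% and 1.14%. In the authors' deposited table this was 0.069, under the size of a call. A 109 nt exon of Ap2a1 was included at 0%, 0.276% and 0% in the first set and at 0%, 0.399% and 0.439% in the second, with overlap and at most 1 inclusion read per library.

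Picalm (chromosome 7, 90130213 to 90213465, plus strand) encodes a clathrin assembly protein that binds phosphoinositides and sorts vesicle cargo. Its 150 nt coding exon (90182219 to 90182368) was included at 94.1%, 94.9% and 96.1% in the first set and at 84.5%, 85.8% and 86.4% in the second. This was the covered event nearest below the size of a call, at 0.095 in the authors' deposited table, and 1320 reads covered it on average. A partly coding 102 nt exon near the end of the gene (90206160 to 90206261) was included at 6.51%, 5.40% and 5.82% in the first set and at 0.881%, 1.77% and 1.62% in the second. Both exons were higher in all 3 libraries of the first set.

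Another Picalm cassette exon, of 24 nt (90194273 to 90194296), was included at 77.2% to 88.2% in the first set and 82.7% to 85.8% in the second, and the sets overlapped. Picalm's alternative 3' splice site 15 nt apart was used at 22.6%, 25.5% and 24.4% in the first set and at 23.4%, 20.6% and 28.1% in the second, again with overlap. So of the 4 Picalm segments described, the 150 nt and 102 nt exons separated the sets and the 24 nt and 15 nt segments did not.

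Eps15l1 (chromosome 8, 72340999 to 72421460, minus strand) encodes a relative of EPS15, an endocytic adaptor that binds AP-2 and ubiquitinated cargo. Its 206 nt exon (72345966 to 72346171), exon 23 of the transcript Eps15l1-201, was included at 86.7%, 92.6% and 89.7% in the first set. In the second set the levels were 63.2%, 67.6% and 69.6%, below every first-set library. The authors' deposited table listed 0.229, with at least 400 reads in each library.

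The 133 nt exon of Eps15l1 (72358313 to 72358445), exon 22 of that transcript, was listed in a pair of events. Against transcripts that join the exon before it to the last exon, it was included at 73.3%, 71.8% and 73.1% in the first set and at 54.2%, 58.6% and 55.7% in the second, a difference of 0.166 in the authors' deposited table. Against transcripts that skip it and carry the 206 nt exon, its levels were 73.8%, 71.7% and 78.2% against 79.4%, 76.1% and 71.6%, with overlap, and the authors' deposited table listed -0.011. In the second set the inclusion reads of the 2 events were alike, 351, 330 and 431 in the called event and 341, 330 and 455 in the other. In the first set they were fewer in the called event in every library, 296, 269 and 261 against 347, 337 and 324. Skipping reads of the called event were 56, 55 and 50 in the first set and 154, 121 and 178 in the second, and those of the 206 nt exon were 28, 13 and 18 against 81, 67 and 89. The called level of the 133 nt exon therefore moved together with skipping of the 206 nt exon. Neither length is a multiple of 3, unlike the 8 printed segments, and the 151 nt form of Exoc7 described below is not either. The skipping form of the called 133 nt event leaves out both Eps15l1 exons. Their lengths leave remainders of 1 (133 nt) and 2 (206 nt) on division by 3, so leaving out both keeps the reading frame by length.

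Itsn1 (chromosome 16, 91729281 to 91920597, plus strand) encodes intersectin, a multidomain scaffold that gathers dynamin, synaptojanin and AP-2 at the pit. None of its 15 covered events was called. The largest difference among covered events was 0.049 in the authors' deposited table, for an alternative 3' splice site 3 nt apart that was used at 100%, 94.0% and 98.4% in the first set and at 90.9%, 93.4% and 93.5% in the second. Of the 15, 11 events were included at 90% or more in every library.

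Synj1 (chromosome 16, 90936092 to 91011308, minus strand) encodes synaptojanin, the phosphatase that strips phosphoinositides from coated vesicles. Its alternative 3' splice site adds 9 nt (90974067 to 90974075) at the start of an exon, the segment in capitals above. The longer form made up 24.7%, 30.8% and 16.2% in the first set and 92.4%, 87.3% and 100% in the second. The sets lay far apart, and their difference in the authors' deposited table, -0.693, was the largest in size among covered events of the 10 genes.

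Depth at this Synj1 site was low, with a mean of 33.7 reads per library and 14 in the lowest. The 95% exact intervals ran from 7.23% to 44.5% over the first set and from 64.8% to 100% over the second, so they too were apart. Skipping reads were 23, 38 and 39 in the first set and 1, 3 and 0 in the second. This call was lost with a mean of 50 reads or 20 reads in every library.

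Dnm2 (chromosome 9, 21424908 to 21507759, plus strand) encodes dynamin 2, the dynamin found in most tissues. Its 12 nt coding exon (21490658 to 21490669) was included at 18.2%, 26.2% and 27.6% in the first set and at 35.4%, 37.3% and 32.0% in the second. The second set was higher in every library, with at least 767 reads in each. The authors' deposited table listed -0.109, the called event nearest to the minimum size. Another covered event, with a mean of 27 reads, listed the same exon at 100%, 95.8% and 88.7% in the first set. There the exon stood at 100% in every library of the second set. The sets overlapped, and that event was not called.

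Dnm2 also has a pair of alternative exons of 139 nt each (21478899 to 21479037 and 21480407 to 21480545). The first exon of the pair made up 52.3%, 54.7% and 49.2% in the first set and 56.9%, 61.9% and 57.9% in the second. The sets did not overlap, but the FDR in the authors' deposited table was 0.103 and the difference was -0.068. The listed skipping of the second exon of the pair passed that threshold, with an FDR of 0.0385 and a difference of 0.076 in the authors' deposited table, under the size of a call. That exon was included at 37.0%, 32.8% and 41.6% in the first set and at 31.1%, 26.7% and 30.9% in the second, again without overlap. The listed skipping of the first exon of the pair gave 45.7%, 44.4% and 48.5% against 47.2%, 51.7% and 49.7%. Those sets overlapped, and the difference in the authors' deposited table was -0.033. Where the other exon of the pair was absent, each was included at 98.5% or more in every library.

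The wider list held a dynamin gene with an exon of the same length. Dnm1, known best as the neuronal dynamin, was listed here at 124.4 FPKM in WT and 110.4 FPKM in PTBP1_KO, above Dnm2 at 90.7 and 83.4 FPKM. A mean of 1193 reads covered its 12 nt exon (chromosome 2, 32323179 to 32323190), shown beside that of Dnm2 because both lie at exon 14 of their transcript models.
Dnm1 12 nt exon: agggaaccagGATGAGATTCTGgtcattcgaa
The Dnm1 exon was included at 65.1%, 53.2% and 69.2% in the first set and at 8.99%, 12.3% and 7.88% in the second. Its listed difference of 0.528 in the authors' deposited table has the opposite sign to that of Dnm2.

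Exoc7 (chromosome 11, 116288001 to 116307233, minus strand) encodes a membrane-binding subunit of the exocyst, whose splice forms are known to differ between epithelial and mesenchymal cells. It held 5 of the 11 called events, among 7 covered. Its 93 nt exon (116297571 to 116297663) was included at 30.0%, 24.2% and 35.0% in the first set and at 0.508%, 2.71% and 2.71% in the second. The exon was thus a common form in the first set and a rare one in the second, with 0.278 in the authors' deposited table.

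The 39 nt exon of Exoc7 (116293275 to 116293313) lies further downstream and behaved alike. It was included at 12.8%, 11.4% and 15.3% in the first set and at 1.08%, 0.789% and 0% in the second. The 0 of 215 reads allows up to 1.10%. The authors' deposited table listed 0.125.

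Between them lies a 69 nt exon (116296730 to 116296798), which one annotated non-coding transcript extends to 151 nt. With the 93 nt exon absent, the 69 nt exon was included at 31.8%, 33.1% and 46.6% in the first set and at 22.1%, 14.8% and 20.5% in the second, a difference of 0.180 in the authors' deposited table. Counted after the 5' splice site of the 93 nt exon, it was included at 68.1%, 68.0% and 75.9% against 100%, 93.4% and 92.2%, and the listed difference in the authors' deposited table was -0.245. So the same exon was higher in the first set in one event and lower in the other.

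The 151 nt form after the 93 nt exon had the largest listed difference of Exoc7, -0.433 in the authors' deposited table. Its levels were 44.1%, 49.4% and 58.7% in the first set and 100%, 91.1% and 90.9% in the second. The 69 nt exon lies wholly within the 151 nt form (116296730 to 116296880), so reads inside that exon can count in both events. These levels therefore cannot be read as the share of the 151 nt form itself. Skipping reads of both of these events were the same 26, 27 and 23 in the first set and 0, 1 and 2 in the second. In library 1 of the second set, the 151 nt event counted 19 inclusion reads while the 93 nt exon itself had 1. The negative listed differences of Exoc7 therefore share few skipping reads with a form that was rare in the second set.

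The 5 called differences below -0.2 had means from 33.7 to 71.3 reads per library, as the plot of difference against reads shows. The 5 positive calls had means from 118 to 449 reads, and the Dnm2 call had 883. The minimum of 20 reads in every library kept 6 of the 11 events and removed Clta, Synj1 and the 2 negative Exoc7 events.

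**Figure D3:**
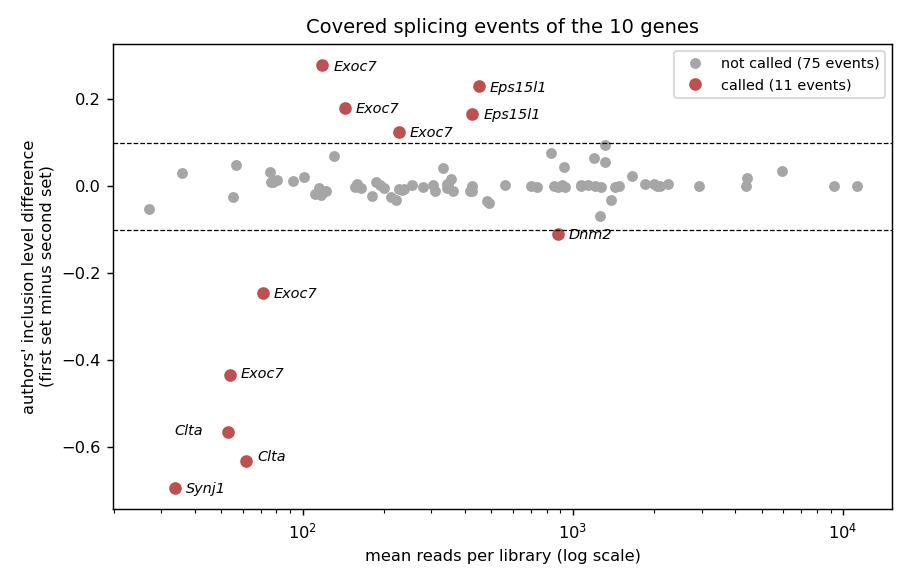
The authors' inclusion level difference (first set minus second set, vertical axis) against mean reads per library (horizontal axis, log scale) for the 86 covered events of the 10 genes, with called events in colour and dashed lines at differences of 0.1 and -0.1. The negative calls of Synj1, Clta and Exoc7 sit at fewer reads than the positive calls of Exoc7 and Eps15l1.

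Most skipped exon events of these genes were near constant. Of 69 covered events, 42 were included at 90% or more in every library and 10 at 10% or less in every library, which leaves 17 in between. The 9 called skipped exon events fell among those 17. With no minimum difference, 17 events of all types in 8 genes had an FDR below 0.05, against 3.76% of all covered events. Over the 14 different skipped exons among them, 10 (71.4%) had a length that is a multiple of 3, beside 46.5% of the 43 other covered exons of these genes and 39.9% of all covered skipped exons in the series. Among called skipped exons the share was 5 of 8 (62.5%) in these genes and 345 of 599 (57.6%) in the whole series, so it was not particular to these genes.

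Gene levels were compared separately, between the named groups WT and PTBP1_KO. None of the 10 genes passed q < 0.05 in the authors' deposited table, where 0.537% of 15460 tested genes did. By unadjusted p below 0.05 the count in the authors' deposited table was also 0, against 4.35% of tested genes. Clta was the most abundant, with 279.8 FPKM in WT and 306.5 FPKM in PTBP1_KO. The next were Picalm (91.8 and 91.2 FPKM), Dnm2 (90.7 and 83.4 FPKM), Cltc (88.8 and 104.5 FPKM) and Cltb (66.6 and 81.4 FPKM).

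The rest of the order was Eps15l1 (36.7 and 31.3 FPKM), Ap2a1 (21.5 and 22.0 FPKM), Synj1 (17.7 and 18.2 FPKM), Itsn1 (15.2 and 14.8 FPKM) and Exoc7 (11.95 and 13.05 FPKM). With 1 value per group, neighbours in this order cannot be separated, and Cltc passed Picalm and Dnm2 between the groups. The largest difference was that of Cltb, with a log2 fold change of 0.29 and p = 0.0815 in the authors' deposited table. Next in size were Cltc, at 0.23, and Eps15l1, at -0.23, in the authors' deposited table.

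Over the 10 genes the median log2((PTBP1_KO + 1)/(WT + 1)) was 0.03, beside 0.02 over all tested genes, with 6 genes higher and 4 lower in PTBP1_KO. In bulk RNA a change in the share of cells of a type and a change of RNA per cell cannot be told apart. The genes with called events were thus listed at levels from 85.3% (Eps15l1) to 109.5% (Clta) of WT.

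**Figure D4:**
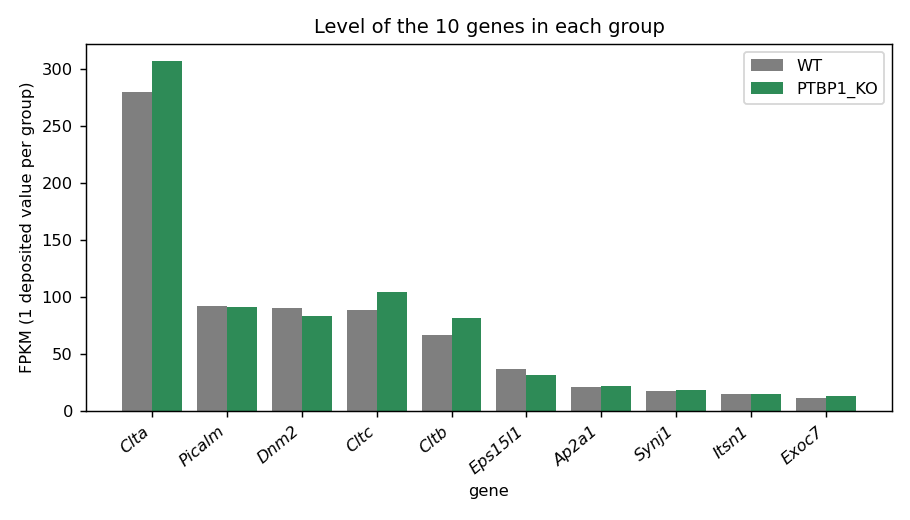
FPKM on the vertical axis, from 0, for each of the 10 genes on the horizontal axis, with 1 bar for the WT value and 1 for the PTBP1_KO value, and no error bars because the authors deposited 1 value per group. Clta stands highest at 279.8 and 306.5 FPKM, and no pair of bars passed the authors' q-value threshold.

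A wider list of 88 genes, the 10 included, was drawn up for clathrin and its adaptors (39), scission, scaffolds and uncoating (35) and the exocyst with its small GTPases (14). Outside the 10 genes, none of 72 tested genes passed q < 0.05 in the authors' deposited table, and 2 had an unadjusted p below 0.05. These were the AP-2-binding protein Necap2, at 30.5 FPKM in WT and 21.3 FPKM in PTBP1_KO, and Reps2, an EPS15 relative, at 2.59 and 2.01 FPKM. The median log2 ratio was -0.01 for the other clathrin and adaptor genes, 0.06 for the other scission and scaffold genes and 0.07 for the other exocyst genes.

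Called splicing events were found in 9 of 63 genes of that wider list with a covered event, the 10 left out, beside 6.61% of all such genes in the series. By part of the list these were 3 of 28 clathrin and adaptor genes, 5 of 25 scission and scaffold genes and 1 of 10 exocyst genes. After Dnm1, the largest listed difference was that of Arrb1, which encodes beta-arrestin 1, an adaptor for activated receptors. Its 24 nt exon (chromosome 7, 99597036 to 99597059) was included at 69.03%, 66.67% and 71.42% in the first set and at 24.3%, 23.7% and 27.5% in the second, and 0.439 was listed in the authors' deposited table.

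Trip10, a membrane-curving scaffold, had a 168 nt exon (chromosome 17, 57256860 to 57257027) at 35.5%, 20.8% and 27.6% in the first set and at 5.32%, 3.45% and 5.14% in the second. Ap2b1, the beta subunit of AP-2, had a 42 nt exon (chromosome 11, 83364795 to 83364836) at 58.0%, 41.7% and 53.4% against 31.8%, 28.8% and 26.5%. Neither pair of sets overlapped. For Pip5k1c, a kinase that makes the phosphoinositide recognised by AP-2, a 269 nt exon (chromosome 10, 81316692 to 81316960) was listed at -0.287 in the authors' deposited table with a mean of 26.7 reads, and its sets overlapped. A 78 nt exon of Pip5k1c (81317326 to 81317403) was also called, with the opposite sign, at 0.161 in the authors' deposited table. It had a mean of 220.3 reads, and its sets did not overlap.

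The only other exocyst gene called was Exoc1, picked for description once its values were known. Its 21 nt exon (chromosome 5, 76540747 to 76540767) was included at 13.9%, 6.13% and 17.2% in the first set and at 0% in all 3 libraries of the second, which allows up to 2.74%. Exoc1 and Exoc7, both exocyst subunits, thus had short exons seen mainly in the first set of libraries.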

How the data were processed

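The submitters' processing notes name bcl2fastq 2.20, Trimmomatic 0.38 and STAR 2.6.1d for the 6 libraries, also Cuffdiff, Cufflinks and the mm10 build, without giving their settings. FPKM values (1 per group), the log2 fold change and the p-value and q-value of each gene were made by the authors. The 5 splicing tables follow the MATS layout per the labels. Inclusion and skipping read counts, form lengths and other read totals, p-values and FDR were deposited by the authors, and the inclusion level difference is a score the authors deposited, equal within 0.00112 to the value recomputed for covered events. The labels mark them JCEC, the MATS kind whose counts include reads inside exons as well as at junctions.

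Inclusion is IJC/IncFormLen divided by that plus SJC/SkipFormLen, per library. The 10 columns of rounded inclusion levels were not used. No sample of either set was tied to a group, so sets were not tested. Exact (Clopper-Pearson) 95% intervals on reads, and limits of 3 counts for a 0, were carried through the length correction and cover counting error only. Members, lists and the naming rule were chosen with earlier results of these data known: for each member and event type the called event with the largest difference, otherwise its largest covered one, and 5 further genes of the wider list by largest called difference. Other member events and a further Pip5k1c event were added for context. The arithmetic of the inclusion level was checked on simulated reads drawn with the same length formula and scored only where reads were many. That check therefore says nothing about the events with few reads or very low inclusion. No library pair held identical reads. Any p-value of the authors weighs a difference against variation that includes the spread between these libraries, which may be technical. Gene positions and exons are from GENCODE M21, 1-based; for 6 of the 10 genes the locus given with the FPKM is wider than the annotated gene. The planned search for PTB motifs in introns was not run, since it needs genome sequence that was not used here. Software was scipy 1.17.1, pandas 2.3.3, numpy 2.4.6 and matplotlib 3.10.9 under Python 3.11.15.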

Additional observations from a re-analysis of the deposited data

How the results depend on the processing

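Of 11 called events of the 10 genes, 7 were left with a difference of at least 0.2 and 6 with at least 20 reads in every library, and 17 were called with no minimum difference. Counts under a difference of 0.05, a mean of 10 or 50 reads, 20 reads on average within both sets (chosen after seeing the data) or each exon counted once ranged from 9 to 14. Genes of the wider list with a called event numbered 14, the 10 included, and became 24 at 0.05 and 9 at 0.2. Each such setting by its construction lets in or drops events. The median log2 ratio of the 10 genes was 0.03 and became 0.018 after centring on all tested genes.

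The median over 11 named events of inclusion pooled over libraries was 29.7%, and leaving out each library gave 28.4% to 31.9%. For each named event, pooled inclusion moved by less than 1 SD over the 6 libraries in 66 of 66 leave-one-out values, 11 of 11 with raw reads and 11 of 11 with the median of libraries, but that SD includes the gap between the sets. The median of libraries moved the Clta event against the 36 nt exon from 6.06% to 17.8% and the Clta exon pair from 11.7% to 31.3%. No paired analysis was possible because the columns carry no replicate number or genotype. Low read numbers limit the Clta and Synj1 events, and the motif count was not run.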
